A study of Mus musculus with 6 samples.

Results

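The genes described here set the pace of the first gap phase of the cell cycle: the D-type cyclins Ccnd1, Ccnd2 and Ccnd3, their kinases Cdk4 and Cdk6, the inhibitors Cdkn1b, Cdkn1c, Cdkn2a and Cdkn2c, and the retinoblastoma gene Rb1. They were taken by symbol from the deposited count table, which holds 22030 genes, and all 10 were found there and in the deposited FPKM table. The libraries were stranded mRNA-seq of mouse bone marrow mesenchymal stem cells (BMSCs), the adherent stromal progenitors of marrow that can form bone, fat and cartilage. The 3 siRIOK3 libraries carried a knockdown of the atypical kinase gene Riok3, which acts in the late maturation of the small ribosomal subunit, and the 3 siNC libraries were their controls, with the genotype given as WT. The design text speaks of stable lentiviral knockdown and, a sentence later, of knockout cells, while sample titles carry an si prefix, so what lowered Riok3 is known only that far. No source used here gives the mouse strain or age, the culture medium, the day of harvest, or whether replicates were separate cultures or clones, so p-values measure the spread between these libraries, which may be technical.

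In G1, growth signals raise the D-type cyclins, which bind Cdk4 or Cdk6 and start the phosphorylation of the retinoblastoma protein. The protein then lets go of E2F transcription factors, which switch on cyclin E and the genes of DNA synthesis. Inhibitors of the INK4 family, among them Cdkn2a and Cdkn2c, bind Cdk4 and Cdk6 alone, whereas the CIP/KIP inhibitors Cdkn1b and Cdkn1c act on cyclin-CDK complexes, above all those of Cdk2. In marrow stromal cells, leaving the cycle goes along with differentiation towards bone, and the products of Cdkn2a are markers of senescence in culture.

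The sequences upstream of 4 of these genes are shown because each gene has a feature that the counts meet: Cdk4 and Cdk6 are alternative kinases of the same cyclins, and Ccnd3 and Cdkn2a each have a pair of start sites whose transcripts were pooled into 1 count. They are the 250 bases before each start from RefSeq (GRCm38.p6), written 5′ to 3′, and capitals mark matches on either strand to 6 motifs. The motifs were E2F (TTTCCCGC, TTTCGCGC, TTTGCCGC or TTTGGCGC), the E-box CACGTG, CRE (TGACGTCA), AP-1 (TGACTCA or TGAGTCA), Sp1 (GGGCGG) and the CCAAT box.
Cdk4, chr10:127063285-127063534 plus strand: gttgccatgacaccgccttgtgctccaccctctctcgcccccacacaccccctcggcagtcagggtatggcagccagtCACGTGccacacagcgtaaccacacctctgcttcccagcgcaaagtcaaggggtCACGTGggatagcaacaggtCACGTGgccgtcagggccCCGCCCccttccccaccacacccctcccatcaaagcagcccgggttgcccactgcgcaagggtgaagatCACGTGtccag
Cdk6, chr5:3343643-3343892 plus strand: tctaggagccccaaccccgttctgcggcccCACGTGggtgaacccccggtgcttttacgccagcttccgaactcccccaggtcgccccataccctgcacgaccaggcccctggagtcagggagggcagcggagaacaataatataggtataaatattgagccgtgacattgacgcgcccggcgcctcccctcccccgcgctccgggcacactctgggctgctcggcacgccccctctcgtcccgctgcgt
Ccnd3, upstream start, chr17:47504801-47505050 plus strand: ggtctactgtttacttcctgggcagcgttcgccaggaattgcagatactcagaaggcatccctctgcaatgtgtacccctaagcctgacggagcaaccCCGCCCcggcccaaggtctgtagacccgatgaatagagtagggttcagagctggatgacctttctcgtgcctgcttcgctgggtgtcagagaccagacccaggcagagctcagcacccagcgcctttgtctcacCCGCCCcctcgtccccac
Ccnd3, downstream start, chr17:47593217-47593466 plus strand: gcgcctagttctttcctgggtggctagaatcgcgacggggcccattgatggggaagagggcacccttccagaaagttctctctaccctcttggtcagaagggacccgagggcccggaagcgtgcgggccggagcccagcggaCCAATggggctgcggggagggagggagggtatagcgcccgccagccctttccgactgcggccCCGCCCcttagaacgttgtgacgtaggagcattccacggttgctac
Cdkn2a, upstream start, chr4:89294620-89294869 minus strand: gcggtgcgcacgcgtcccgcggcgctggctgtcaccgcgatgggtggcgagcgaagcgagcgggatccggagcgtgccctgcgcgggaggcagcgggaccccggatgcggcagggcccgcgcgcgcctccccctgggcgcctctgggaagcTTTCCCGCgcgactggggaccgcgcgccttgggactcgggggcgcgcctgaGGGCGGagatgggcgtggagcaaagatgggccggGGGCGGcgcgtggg
Cdkn2a, downstream start, chr4:89282193-89282442 minus strand: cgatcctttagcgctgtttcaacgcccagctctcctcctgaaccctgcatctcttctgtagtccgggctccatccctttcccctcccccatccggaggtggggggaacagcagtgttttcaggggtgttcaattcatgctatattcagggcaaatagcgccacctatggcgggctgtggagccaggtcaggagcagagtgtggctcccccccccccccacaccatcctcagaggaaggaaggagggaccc
The Cdk4 sequence held 4 E-boxes and 1 Sp1 word, and the Cdk6 sequence held 1 E-box. Of 32851 mouse promoters of the same length, 6.02% held an E-box and 7, or 0.0213%, held 4 or more. That cutoff equals the count in Cdk4 itself, and no such share was taken for the other motifs. The upstream start of Ccnd3 had 2 Sp1 words, and the downstream start had 1 Sp1 word and 1 CCAAT box, against 32.7% and 33.8% of all promoters with at least 1 of each. The upstream start of Cdkn2a had 1 E2F word, present in 1.86% of all promoters, and 2 Sp1 words, while none of the 6 motifs was found before its downstream start. CRE was found in 1.55% and AP-1 in 4.46% of all promoters and in none of the sequences shown. The RefSeq table matched 6 of the 10 genes with 9 sequences, and those of Cdkn1b and Cdkn2c are not shown. Cdkn2c also has 2 start sites there, whose transcripts were likewise pooled into 1 count. Before 1 of them were 3 Sp1 words, and before the other none of the 6 motifs.

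Total counts were 28327612 to 32569544 per library, and 13067 genes passed the filter on low counts. Riok3 had 1034, 1048 and 1155 counts in siRIOK3 libraries, against 4266, 5365 and 4022 in siNC libraries, and fell by 2.23 on the log2 scale (adjusted p = 0.000127, edgeR quasi-likelihood test), 4.68-fold lower in siRIOK3. Of the 3 siNC libraries, replicate 2 stood apart, with Spearman correlations of 0.963 and 0.968 to the other two, against 0.996 between those. Expression relative to the mean of the 6 libraries climbed with transcript GC content by 0.564 to 0.662 log2 units per 10 points of GC in siRIOK3 libraries, whereas the same slopes were -0.794, -0.45 and -0.64 in siNC libraries. This trend separated the groups in every library, so that knockdown and GC trend cannot be told apart, and values with the trend removed (a GC offset per gene and library) are therefore given beside the main ones. With the trend removed Riok3 was at -1.20, 2.30-fold lower, and it passed in 21 of 22 other settings, missing the threshold with GC taken from the longest transcript (-0.62, adjusted p = 0.0975, where the others gave adjusted p-values from 2.39e-26). Of 12 marrow stromal markers, 11 were tested, of which 4 rose and 5 fell, beside 48.0% of all tested genes called. With the GC trend removed 3 rose and 2 fell, beside 31.6% of all genes called. The 12 summed to 505 to 528 normalised counts scaled to library size (CPM) in siRIOK3 libraries and 644 to 768 in siNC libraries. Without Itgb1, the most abundant, the sum was 260 to 271 CPM in siRIOK3 and 311 to 371 CPM in siNC libraries. Of 11 macrophage and leukocyte markers, 2 were tested, Cd68 and Cd14, and neither passed, though Cd14 was called lower with the GC trend removed. The summed level of this list was 46.6 to 51.7 CPM in siRIOK3 libraries and 26.6 to 43.2 CPM in siNC libraries, nearly all of it Cd68, without which the sum was 1.2 to 1.48 CPM in siRIOK3 and 1.34 to 2.41 CPM in siNC libraries. The pan-leukocyte marker Ptprc had 1, 0 and 0 counts in siRIOK3 libraries and 3, 0 and 3 in siNC libraries, and the niche marker Lepr had 1, 4 and 1 counts in siRIOK3 libraries and 9, 7 and 13 in siNC libraries. Endothelial markers summed to 8.3 to 8.79 CPM in siRIOK3 libraries and 3.13 to 8.02 CPM in siNC libraries, most of it Kdr. Without Kdr the sum was 0.902 to 1.77 CPM in siRIOK3 and 0.719 to 1.34 CPM in siNC libraries. Erythroid markers were at or near 0. The part of any contaminating cells in the values that follow was not tested, and in bulk RNA fewer cells of a kind and less RNA per cell cannot be told apart.

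The G1 genes did not move as a block. Ccnd3, Cdkn1c and Cdkn2c rose in the knockdown, Ccnd1, Ccnd2, Cdk6 and Rb1 fell, and Cdk4, Cdkn1b and Cdkn2a did not pass the threshold of 0.05 on the adjusted p in edgeR's quasi-likelihood test. Of all tested genes the test called 48.0%, 21.1% higher and 26.8% lower. The median log2 fold change of the 10 genes was 0.04, beside 0.01 over all tested genes. Normalised levels did not overlap between the groups for 8 of the 10, all but Cdkn1b and Cdkn2a, and for 62.1% of all tested genes. After removal of the GC trend the test called 31.6% of genes, 16.3% higher and 15.2% lower. In that fit Ccnd3, Cdkn1b and Cdkn1c were called higher, Ccnd1 and Cdkn2a lower and the other 5 neither, with a median of 0.03 over the 10. Ccnd1, Ccnd3 and Cdkn1c were the 3 genes that passed in 1 direction under each of the 22 other settings tried. The share of all tested genes that did so was not computed, and among the related genes below Ccne2, Fbxw7 and Pola1 did so too. Without siNC replicate 2, 4 genes were called higher and 4 lower, where 35.1% and 36.5% of all genes were. With the GC trend removed as well they were 4 and 3, where 33.7% and 27.9% of all genes were.

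**Figure D1:**
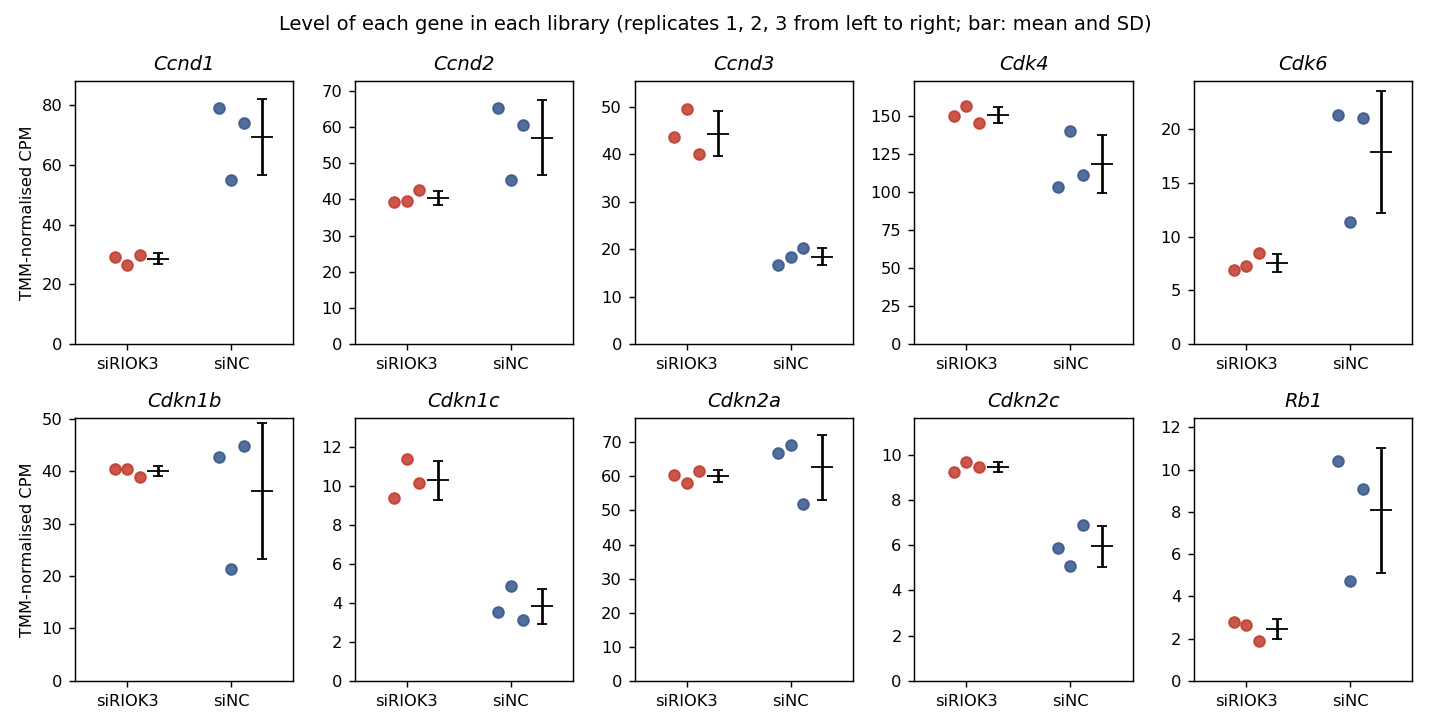
Normalised level (CPM, linear axis from 0) of each of the 10 G1 genes in the 3 siRIOK3 libraries (left) and the 3 siNC libraries (right), with 1 point per library and bars for mean and SD. The groups overlap for Cdkn1b and Cdkn2a, and siNC replicate 2 is the lowest control for Ccnd1, Ccnd2, Cdk6, Cdkn1b, Cdkn2c and Rb1.

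**Figure D2:**
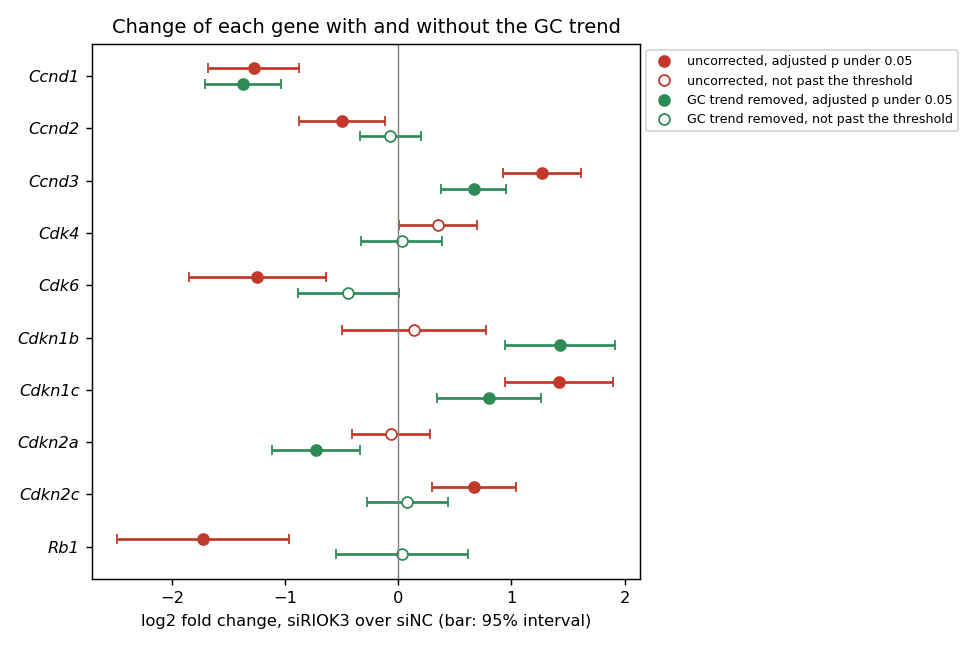
Log2 fold change of each gene, siRIOK3 over siNC, with its 95% confidence interval, from the counts as deposited (upper of each pair) and with the GC trend removed (lower), filled where the adjusted p is under 0.05. Ccnd1, Ccnd3 and Cdkn1c are filled in both fits. Only Rb1 changes its side of 0, at -1.73 without and 0.03 with the offset.

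Among the D-type cyclins, Ccnd1 (ENSMUSG00000070348.6, chromosome 7), the cyclin most directly raised by growth factor signals, fell in the knockdown. Its level was 29.3, 26.4 and 29.98 CPM in siRIOK3 libraries, against 79.1, 54.8 and 74.0 CPM in siNC libraries. All 3 siRIOK3 libraries lay below the lowest siNC library, and they differed little among themselves. The means were 28.6 ± 1.87 and 69.3 ± 12.8 CPM (SD, n = 3 each), 2.43-fold lower in siRIOK3, with a log2 fold change of -1.28 (SE 0.170, edgeR adjusted p = 0.00107). Removing the GC trend gave -1.37, and the 22 other settings gave -1.56 to -0.89 with adjusted p-values of 2.34e-12 to 0.00988.

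Ccnd3 (ENSMUSG00000034165.17, chromosome 17), a D-type cyclin known for its role in lymphocyte and muscle development, moved the other way. It had 43.7, 49.5 and 40.0 CPM in siRIOK3 libraries, against 16.6, 18.3 and 20.2 CPM in siNC libraries. Every siRIOK3 library was well above every siNC library, and siNC replicate 2 was the middle one of its group. The means of 44.4 ± 4.80 and 18.4 ± 1.80 CPM (SD, n = 3 each) gave 2.41-fold more in siRIOK3, a log2 fold change of 1.27 (SE 0.146, edgeR adjusted p = 0.000543). Removing the GC trend lowered it to 0.67, still called higher, and the other settings gave 0.59 to 1.52 with adjusted p-values of 3.33e-13 to 0.0314.

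Ccnd2 (ENSMUSG00000000184.13, chromosome 6), the third D-type cyclin, had 39.2, 39.5 and 42.5 CPM in siRIOK3 libraries, against 65.2, 45.5 and 60.5 CPM in siNC libraries. The groups did not overlap, but siNC replicate 2 lay close to the highest siRIOK3 library. The means were 40.4 ± 1.85 and 57.1 ± 10.3 CPM (SD, n = 3 each), a log2 fold change of -0.50 (SE 0.162, edgeR adjusted p = 0.0393). This call held in 5 of 22 other settings, whose adjusted p-values ran from 6.89e-07 to 0.982. It was lost when any library other than siNC replicate 2 was left out (adjusted p = 0.0963 to 0.136), with the replicate number as a block (-0.48, adjusted p = 0.0743), and under the GC offset (-0.07).

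Since the levels of different genes can be compared only per length, the make-up of the D-type cyclin pool was taken from the authors' FPKM (fragments scaled to transcript length and sequencing depth). The summed FPKM of the 3 cyclins was 16.3, 16.5 and 16.6 in siRIOK3 libraries, against 22.4, 16.1 and 22.1 in siNC libraries, so the groups overlapped. Within that sum the share of Ccnd1 was 40.4%, 36.3% and 41.2% in siRIOK3 libraries, against 65.5%, 62.7% and 64.3% in siNC libraries. Ccnd3 made up 32.5%, 36.5% and 29.5% in siRIOK3 libraries, against 7.4%, 11.3% and 9.42% in siNC libraries. Ccnd1 was thus the main D-type cyclin transcript in each siNC library, and in siRIOK3 library 2 it was level with Ccnd3. The difference was -24.8 percentage points for Ccnd1 and 23.5 for Ccnd3, and for both the groups did not overlap, unlike the totals. Each gave p = 0.1 in a two-sided exact permutation test, which is the smallest p that 3 libraries against 3 allow. The share of Ccnd2 was 27.8 ± 1.25% in siRIOK3 libraries and 26.5 ± 0.524% in siNC libraries (SD, n = 3 each), a difference of 1.37 points with the same p of 0.1 in the exact permutation test. The nearest libraries of both groups were at 27.1%, and computed from CPM in place of FPKM the difference was -3.672 points. SiNC replicate 2, the library that stood apart, had shares close to those of its group for all 3 cyclins. With the GC trend removed from the FPKM, a step added after seeing the data, Ccnd1 made up 39.3 ± 2.19% in siRIOK3 and 65.9 ± 1.91% in siNC libraries, and Ccnd3 27.5 ± 2.51% and 11.3 ± 1.31% in the same order (SD, n = 3 each). Ccnd2 then stood at 33.2 ± 0.637% in siRIOK3 and 22.7 ± 0.666% in siNC libraries (SD, n = 3 each).

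**Figure D3:**
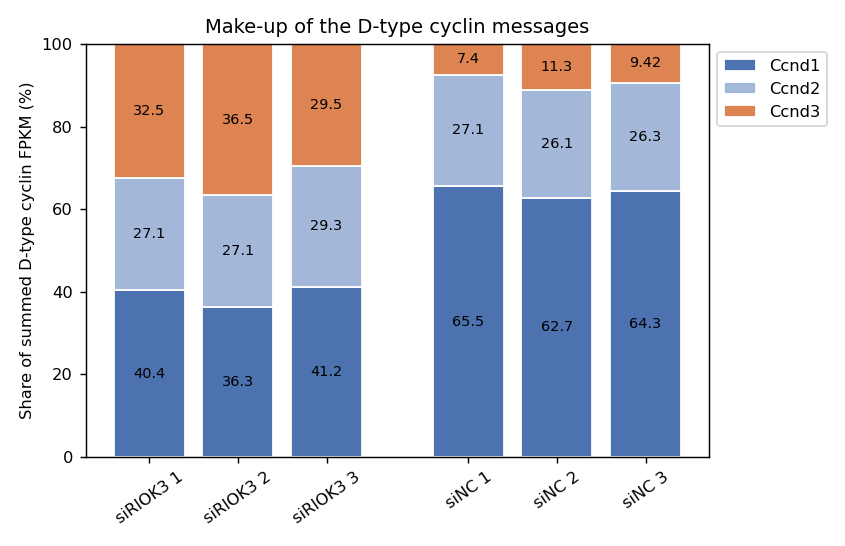
Share (%) of Ccnd1, Ccnd2 and Ccnd3 in their summed FPKM in each of the 3 siRIOK3 and 3 siNC libraries; each bar is 1 library. Ccnd1 takes 36.3% to 41.2% of the sum in siRIOK3 libraries and 62.7% to 65.5% in siNC libraries, and the Ccnd2 band hardly differs in width.

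Of the kinases, Cdk4 (ENSMUSG00000006728.13, chromosome 10) was the more abundant by far. It had 150.4, 156.6 and 145.7 CPM in siRIOK3 libraries, against 103.8, 140.2 and 111.6 CPM in siNC libraries. The siRIOK3 libraries were all higher, by a narrow margin over siNC replicate 2. The means of 151 ± 5.49 and 118.5 ± 19.1 CPM (SD, n = 3 each) gave a log2 fold change of 0.35 (95% interval 0.00 to 0.69), which did not pass (edgeR adjusted p = 0.0866). Over the other settings the adjusted p ran from 5.41e-06 to 0.955, with 6 of 22 calling Cdk4 higher. It was called higher without siNC replicate 2 (0.49, adjusted p = 5.41e-06) and was at 0.03 with the GC trend removed. Tspan31, a tetraspanin gene that overlaps Cdk4 on the opposite strand, had 2087, 2090 and 1944 counts in siRIOK3 libraries and 1190, 1589 and 1313 in siNC libraries. No source used here gives the strand setting of the counting, so reads of the overlapping parts cannot be told apart. The same holds for Ccnd3 with the ribosome biogenesis gene Bysl, for Ccnd1 with LTO1 and for Rb1 with Lpar6 and Rcbtb2. It holds for Ccnd2 with the antisense gene 9330179D12Rik as well. Cdk6 (with Gm17590 and Gm42435), Cdkn1c (with Gm44732) and Ccnd2 (with Gm43126) also overlap annotated antisense genes on the opposite strand. Rb1 overlaps Gm17233 and Mir687 on its own strand. No counts were found for these under their identifiers, so reads of such overlaps cannot be told apart either. Bysl had 4514, 4532 and 3880 counts in siRIOK3 libraries and 3794, 2993 and 3476 in siNC libraries. In the same order, LTO1 had 832, 935 and 881 against 591, 652 and 654. Rcbtb2 had 538, 620 and 527 against 531, 532 and 500. Lpar6 had 9, 9 and 10 against 44, 29 and 40, and 9330179D12Rik 68, 57 and 51 against 46, 20 and 32.

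Cdk6 (ENSMUSG00000040274.12, chromosome 5) fell. Its level was 6.90, 7.30 and 8.44 CPM in siRIOK3 libraries, against 21.3, 11.4 and 21.0 CPM in siNC libraries. The groups did not overlap, although siNC replicate 2 lay closer to the siRIOK3 libraries than to the other controls. The means were 7.55 ± 0.797 and 17.9 ± 5.66 CPM (SD, n = 3 each), 2.37-fold lower in siRIOK3, with a log2 fold change of -1.25 (SE 0.258, edgeR adjusted p = 0.00683). Under the GC offset it was -0.44 (95% interval -0.89 to 0.01), which did not pass, and 15 of 20 other settings kept the call, with adjusted p-values of 3.64e-09 to 0.687. Per length, Cdk6 made up 1.05%, 1.08% and 1.33% of the summed FPKM of both kinases in siRIOK3 libraries, against 4.54%, 1.84% and 4.19% in siNC libraries. The shares did not overlap (difference -2.37 points, p = 0.1, two-sided exact permutation test, the smallest possible). With the GC trend removed, here too a step added after seeing the data, the difference was only -0.713 points (p = 0.4 by the same exact test).

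The CIP/KIP inhibitor Cdkn1c (ENSMUSG00000037664.14, chromosome 7), which encodes p57 and is imprinted, rose. It had 9.36, 11.4 and 10.1 CPM in siRIOK3 libraries, against 3.53, 4.85 and 3.13 CPM in siNC libraries. No siRIOK3 library came near the siNC range. The means of 10.3 ± 1.01 and 3.84 ± 0.902 CPM (SD, n = 3 each) gave 2.68-fold more in siRIOK3, a log2 fold change of 1.42 (SE 0.203, edgeR adjusted p = 0.00142). Under the GC offset it was 0.80, and over the other settings 0.76 to 1.68 with adjusted p-values of 1.53e-08 to 0.0344.

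Cdkn1b (ENSMUSG00000003031.15, chromosome 6) encodes p27, which restrains Cdk2 and also helps to assemble cyclin D with its kinases. Its level was 40.5, 40.5 and 38.8 CPM in siRIOK3 libraries, against 42.7, 21.3 and 44.7 CPM in siNC libraries. The siRIOK3 libraries lay inside the siNC range, which siNC replicate 2 widened at its low end. The log2 fold change was 0.14 (95% interval -0.50 to 0.78, edgeR adjusted p = 0.694). All 6 fits that removed a GC trend called Cdkn1b higher, at 0.96 to 1.51 and at 1.43 for a GC offset alone. Without siNC replicate 2 and without that offset it was -0.13 (adjusted p = 0.123), and adjusted p-values over all other settings ran from 8.53e-11 to 0.777.

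Of the INK4 inhibitors, Cdkn2c (ENSMUSG00000028551.15, chromosome 4), which encodes p18, rose. It had 9.26, 9.67 and 9.47 CPM in siRIOK3 libraries, against 5.88, 5.07 and 6.91 CPM in siNC libraries, with no overlap. The means of 9.47 ± 0.206 and 5.95 ± 0.921 CPM (SD, n = 3 each) gave a log2 fold change of 0.67 (SE 0.159, edgeR adjusted p = 0.0117), 1.59-fold more in siRIOK3. The call was kept in 15 of 22 other settings, with adjusted p-values of 0.000998 to 0.808. It was lost with the GC trend removed (0.08) and narrowly without siRIOK3 replicate 2 (0.66, adjusted p = 0.0505).

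Cdkn2a (ENSMUSG00000044303.7, chromosome 4) gives from its separate start sites the INK4 inhibitor p16 and the unrelated protein p19Arf, which stabilises p53, and a single count covers both. It had 60.4, 58.2 and 61.6 CPM in siRIOK3 libraries, against 67.0, 69.3 and 51.8 CPM in siNC libraries. The siRIOK3 libraries lay within the siNC range, and the log2 fold change was -0.06 (95% interval -0.41 to 0.28, edgeR adjusted p = 0.754). Under the GC offset Cdkn2a was called lower (-0.73), as in 4 of 22 settings, while 6 others put it slightly above 0, with adjusted p-values over all settings of 0.0142 to 0.951.

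Rb1 (ENSMUSG00000022105.7, chromosome 14), the target of the cyclin D kinases, had the largest fold change of the 10 genes in the counts as deposited. It had 89, 88 and 59 counts in siRIOK3 libraries, against 310, 132 and 269 counts in siNC libraries. Its level was 2.77, 2.64 and 1.90 CPM in siRIOK3 libraries, against 10.4, 4.75 and 9.06 CPM in siNC libraries. The groups did not overlap, and siNC replicate 2 was the lowest of the controls. The means of 2.44 ± 0.469 and 8.07 ± 2.96 CPM (SD, n = 3 each) were 3.31-fold apart, lower in siRIOK3, with a log2 fold change of -1.73 (SE 0.323, edgeR adjusted p = 0.00449). Under the GC offset it was 0.03 (95% interval -0.55 to 0.61), and 13 of 19 other settings kept the call, with adjusted p-values of 2.14e-08 to 0.930.

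Per length, Cdkn2a and Cdk4 stood well above the other 8 genes in both groups. Cdkn2a averaged 54.7 ± 1.71 FPKM in siRIOK3 and 47.1 ± 6.19 FPKM in siNC libraries, and Cdk4 averaged 49.6 ± 1.74 FPKM in siRIOK3 and 32.1 ± 4.80 FPKM in siNC libraries (SD, n = 3 each). Rb1, at 0.433 ± 0.0815 FPKM in siRIOK3 and 1.18 ± 0.442 FPKM in siNC libraries, and Cdk6, at 0.577 ± 0.0666 and 1.13 ± 0.373 FPKM in the same order (SD, n = 3 each), were at the foot of both. Between these ends the order differed. In siRIOK3 libraries it ran Cdkn1b, Ccnd1, Ccnd3, Cdkn1c, Ccnd2 and Cdkn2c, with the ranges of Ccnd1 and Ccnd3, of Ccnd3 and Cdkn1c, and of Cdkn1c and Ccnd2 meeting or overlapping. In siNC libraries it ran Ccnd1, Cdkn1b, Ccnd2, Cdkn2c, Ccnd3 and Cdkn1c, where the ranges of Ccnd1 and Cdkn1b and those of Ccnd2 and Cdkn2c stood apart and the other neighbours overlapped.

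Among the called genes, transcript composition separated those that fell from those that rose. The 4 genes that fell had a GC content of 41.2% to 50.9%, and the 3 that rose of 58.0% to 59.0%. The uncalled genes were spread over the whole range, at 43.1% (Cdkn1b), 53.3% (Cdk4) and 60.2% (Cdkn2a). Over all tested genes, the median log2 fold change was -1.19 for those with 40% to 45% GC, -0.269 for 45% to 50%, 0.272 for 50% to 55%, 0.538 for 55% to 60% and 0.658 for 60% to 65%. Cdkn1b is one of the AT-rich transcripts, with a 3′ UTR of 3442 bases at 37.7% GC, and its log2 fold change of 0.14 was well above the median of its GC class, -1.19. Rb1 belongs to the same class and, at -1.73, was below that median. With 41.2% GC it lies in the lower part of the class, and genes with 35% to 40% GC had a median of -2.35. Under the GC offset Rb1 was at 0.03. Ccnd1, at -1.28, was well below the 0.272 of its class, in which Cdk4, at 0.35, was close to the median. Ccnd3 and Cdkn1c, at 1.27 and 1.42, were above the 0.538 of theirs, and Cdkn2c, at 0.67, was near it. Cdk6, at -1.25, was below the -0.269 of its class, in which Ccnd2 was at -0.50. With 45.1% GC, however, Cdk6 lies at the lower edge of that class, next to the class with a median of -1.19. Under the GC offset, which does not use classes, Cdk6 was at -0.44 and did not pass. Cdkn2a, at -0.06, was below the 0.658 of its own class. The 4 genes that fell also had longer transcripts, 3740 to 11525 bases, than the 3 that rose, 1888 to 2471 bases, although the longest annotated transcript of Ccnd3 has 3858 bases, more than that of Ccnd1.

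**Figure D4:**
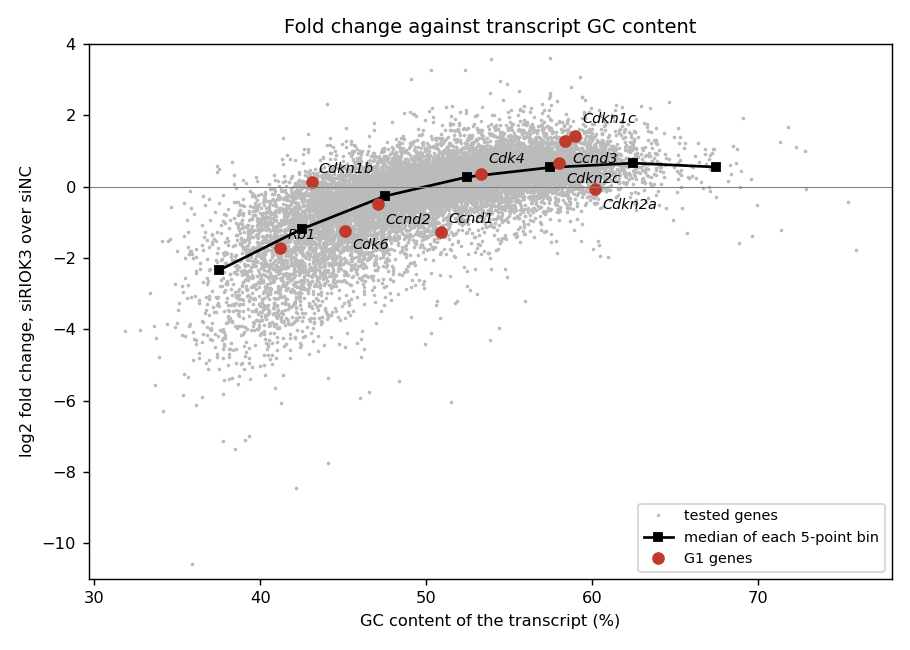
Log2 fold change, siRIOK3 over siNC, against transcript GC content (%) for tested genes with a known transcript (grey), with the median of each 5-point bin (squares) and the 10 G1 genes named. Cdk4 and Cdkn2c sit near the medians, whereas Cdkn1b (0.14) lies above and Ccnd1 (-1.28) below them.

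The genes whose levels over the 6 libraries were most like those of Rb1 were Msantd2, Foxn2 and Malt1. The root mean square difference of their centred log2 CPM from that of Rb1 was 0.0893, 0.111 and 0.116. For Cdkn1c the 3 nearest were Copz2, Gm47163 and Orai3, at 0.0924, 0.109 and 0.133. All these distances rest on 6 libraries in 2 groups.

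Of 22 other genes of the G1/S step, 3 were higher and 7 lower, where 21.1% and 26.8% of all tested genes were. Their median log2 fold change was -0.21, beside 0.01 over all tested genes. With the GC trend removed 2 were higher and 4 lower, where 16.3% and 15.2% of all genes were, with a median of -0.09 beside 0.03. Ccne2, a cyclin that drives Cdk2 at S-phase entry, had 21, 24 and 21 counts in siRIOK3 libraries, against 802, 179 and 569 in siNC libraries. It averaged 0.683 ± 0.0347 CPM in siRIOK3 and 17.5 ± 10.3 CPM in siNC libraries (SD, n = 3 each), with a log2 fold change of -4.67 (SE 0.560, edgeR adjusted p = 0.000688) and of -1.74 with the GC trend removed. It passed in 22 of 22 other settings. Its paralogue Ccne1 averaged 10.3 ± 0.657 CPM in siRIOK3 and 13.2 ± 1.003 CPM in siNC libraries (SD, n = 3 each). Its log2 fold change of -0.37 did not pass (edgeR adjusted p = 0.0566), but under the GC offset it was called lower, at -0.64 (adjusted p = 0.0114), as in 9 of 22 other settings, whose adjusted p-values ran from 0.000122 to 0.619. Cdk2 passed in neither fit, at 15.4 ± 1.06 CPM in siRIOK3 and 17.1 ± 4.90 CPM in siNC libraries (SD, n = 3 each).

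The remaining inhibitors differed among themselves. Cdkn1a, the p53 target p21, averaged 5.68 ± 0.620 CPM in siRIOK3 and 3.59 ± 0.165 CPM in siNC libraries and rose by 0.66 on the log2 scale, and Cdkn2d, the INK4 gene for p19Ink4d, rose by 0.90 (edgeR adjusted p = 0.0135 and 0.0111). Neither passed with the GC trend removed, at 0.27 and 0.42. Cdkn2b, the INK4 gene for p15 beside Cdkn2a, went the other way, at 3.36 ± 0.155 CPM in siRIOK3 and 6.90 ± 2.42 CPM in siNC libraries (SD, n = 3 each). Its log2 fold change was -1.04 (edgeR adjusted p = 0.0147), or -1.52 under the GC offset. Of the Rb1 relatives, Rbl1 fell by 1.12 on the log2 scale (edgeR adjusted p = 0.00376) but under the GC offset was at 0.37 and did not pass. Rbl2 did not pass in either fit, at 19.4 ± 1.95 CPM in siRIOK3 and 16.1 ± 6.36 CPM in siNC libraries (SD, n = 3 each). E2f5, a repressor E2F, and Cdk7, the kinase that activates CDKs, had log2 fold changes of -0.88 and -1.14 (edgeR adjusted p = 0.00226 and 0.0013), and neither passed with the GC trend removed, at -0.33 and -0.11. Mnat1, the assembly factor of Cdk7 and singled out here after its values were seen, fell by 0.64 (edgeR adjusted p = 0.00471), yet was called higher, at 0.85, once the GC trend was removed. The 3 partners called higher became 1 without siRIOK3 replicate 1, and the 7 called lower became 12 without siNC replicate 2. Of all genes, 12.3% were higher without siRIOK3 replicate 1 and 36.5% lower without siNC replicate 2.

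Of 24 genes that act on the stability or transcription of these regulators, 4 were higher and 7 lower, where 21.1% and 26.8% of all tested genes were. Their median log2 fold change was 0.06, beside 0.01 over all tested genes. With the GC trend removed 2 were higher and 3 lower, where 16.3% and 15.2% of all genes were. Fbxw7, the ubiquitin ligase subunit that recognises cyclin E, averaged 6.54 ± 0.987 CPM in siRIOK3 and 19.5 ± 2.08 CPM in siNC libraries (SD, n = 3 each). It fell by 1.58 on the log2 scale (SE 0.166, edgeR adjusted p = 0.000383), and by 1.06 with the GC trend removed, and passed in 22 of 22 other settings. Cul1, the scaffold of SCF ligases, averaged 43.9 ± 3.44 CPM in siRIOK3 and 147 ± 28.6 CPM in siNC libraries (SD, n = 3 each), with a log2 fold change of -1.745 (edgeR adjusted p = 0.000325) and of -0.72 with the GC trend removed. Ezh2 and Bmi1, Polycomb genes that repress Cdkn2a, had log2 fold changes of -1.30 and -1.98 in the counts as deposited (edgeR adjusted p = 0.00153 and 0.0029). Under the GC offset they were at -0.34 and 0.03 and neither passed. The counts of this list were 9 higher and 9 lower without siNC replicate 2, where 35.1% and 36.5% of all genes were called, and 1 higher without siRIOK3 replicate 1 or 2, where 12.3% were in each case.

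Of 20 genes transcribed under E2F at S-phase entry, 2 were higher and 11 lower, against 21.1% and 26.8% of all tested genes. Their median log2 fold change was -0.61, beside 0.01 over all tested genes. With the GC trend removed 1 was higher and 4 lower, against 16.3% and 15.2%, with a median of -0.23 beside 0.03. Pola1, the catalytic subunit of DNA polymerase alpha, averaged 3.72 ± 0.720 CPM in siRIOK3 and 41.1 ± 17.9 CPM in siNC libraries (SD, n = 3 each). It fell by 3.46 on the log2 scale (edgeR adjusted p = 0.000548), and by 1.76 with the GC trend removed. Rrm1, a ribonucleotide reductase subunit, and Ccna2, the S-phase cyclin A, had log2 fold changes of -0.98 and -0.96 (edgeR adjusted p = 0.00072 and 0.000602), and neither passed with the GC trend removed, at -0.06 and -0.38. Without siRIOK3 replicate 1 or 2 the list had 1 gene higher and 6 lower, where 12.3% of all genes were higher and 20.4% or 20.1% lower. Without siNC replicate 2 it had 5 higher and 12 lower, against 35.1% and 36.5% of all genes, or 5 and 10 with the GC trend removed as well, against 33.7% and 27.9%. The median without siNC replicate 2 was -0.377, beside 0.0284 over all genes. With the GC trend removed as well it was -0.0776, beside 0.0739.

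**Figure D5:**
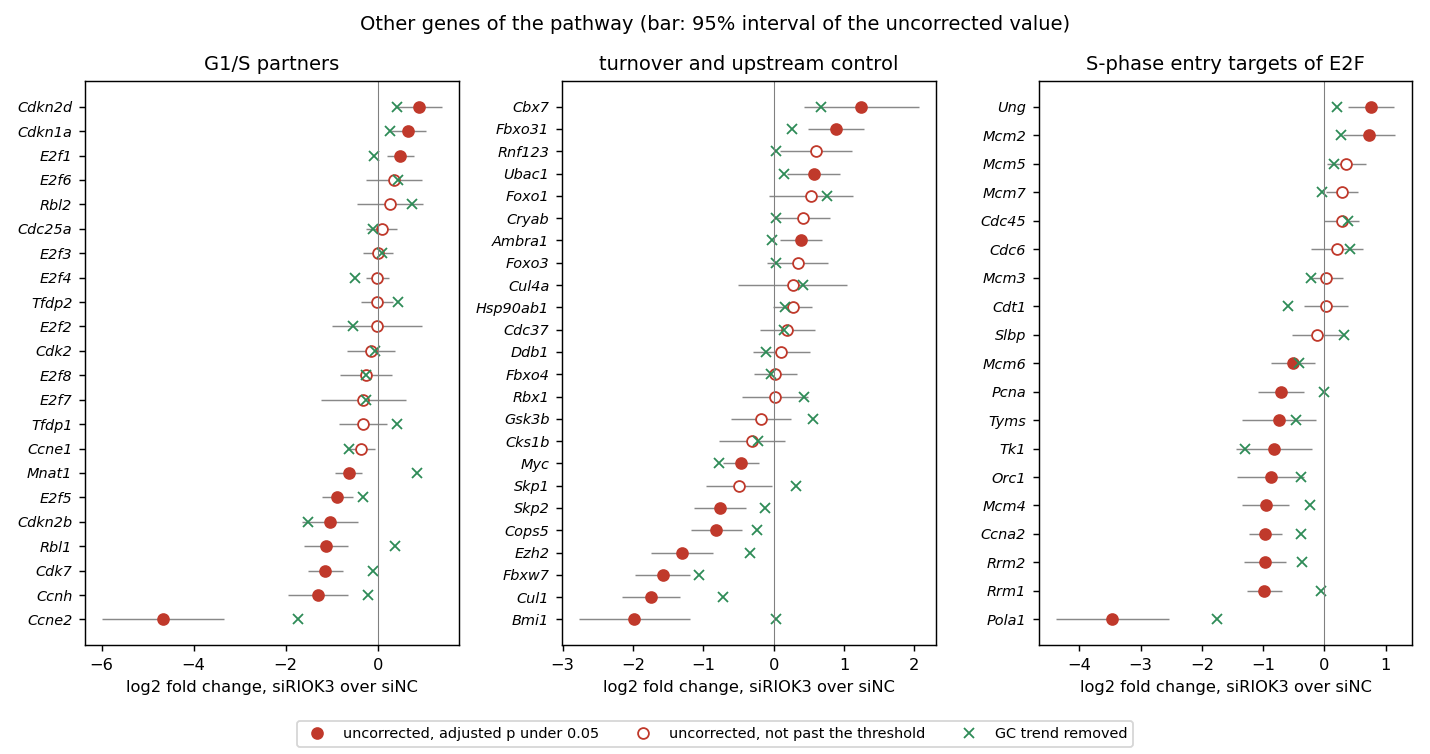
Log2 fold change, siRIOK3 over siNC, of genes of the 3 lists of related genes, from the counts as deposited (circles with 95% intervals, filled where the adjusted p is under 0.05) and with the GC trend removed (crosses). Ccne2 and Pola1 lie lowest in their lists by both, and Mnat1 is on opposite sides of 0.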

How the data were processed

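The deposited tables hold raw counts and FPKM per gene for 6 libraries, made by the authors. Per the submitters' processing notes, reads were handled with HISAT2 and MultiQC on GRCm39, and per the labels' protocols libraries were stranded and sequenced in pairs on a NovaSeq instrument. Counting tool, strand setting and annotation release: not given in the sources used here. From the deposited counts, genes passing filterByExpr (13067, 99.95% of counts) were fitted with edgeR 4.0.16 (R 4.3.3), TMM factors and a robust quasi-likelihood fit, two-sided, with Benjamini-Hochberg adjustment over all tested genes and a threshold of 0.05. Levels are TMM-normalised CPM. Member counts lay between 59 and 5213. Shares came from the FPKM as deposited. GC content came from GENCODE transcripts (GRCm38), known for 99.8% of tested genes, and the offset was a loess (span 0.3) per library. Alternatives included DESeq2 1.42.0, limma 3.58.1 on log2(FPKM + pseudocount of 1 or 0.1), other scalings and filters, GC and length offsets, a replicate block, and each library left out. Deviations of same-numbered libraries correlated at -0.076, 0.0444 and 0.0522, so the numbers were not taken as pairs. All pairs of replicates differed beyond counting noise.

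Named genes were the 10 G1 genes, Riok3, the 4 called genes with the smallest p in each of 3 lists, Cdk2, the E-type cyclins, the remaining INK4, CIP/KIP and Rb1-family genes, and the 3 genes most like each of the 2 G1 genes with the largest fold change. One gene that this rule names is not reported here. The genes and lists were chosen with earlier results of these data known.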

Additional observations from a re-analysis of the deposited data

How the results depend on the processing

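Over the 22 alternatives, the values of the 10 genes kept direction and side of the threshold 155 times, lost the call 30 times, gained one 16 times and turned sign 14 times. Where a value changed, the cause was not tested. The sign turned for Ccnd2 with GC and length offsets (0.003595), for Cdk4 with GC of the longest transcript (-0.01305) and with GC, A content and length (-0.03893), and for Cdkn2c with the GC offset and without siNC replicate 2 (-0.03726). Rb1 turned with the GC offset (0.03299), with GC and length (0.1151) and with GC and the replicate block (0.04447). Cdkn2a turned with upper-quartile scaling (0.1226), library totals (0.1913) and the FPKM fits (0.2213, 0.2254 and 0.2213). Leaving out 1 library gave -0.1289 to 0.321 for Cdkn1b and -0.1815 to 0.01849 for Cdkn2a. The Ccnd2 share was -3.672 points from CPM.

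G1 genes called lower numbered 1, 1 and 2 in the FPKM fits, and 2 with GC, 2 with GC of the longest transcript, 1 with GC and length and 2 with GC and block. Of the G1/S partners called higher, 1 was left with GC and block, 8 with GC without siNC replicate 2, and 1 to 3 with 1 library left out. Those called lower were 4 with GC, 4 with GC and length, 3 with GC and block, and 6 to 12 with 1 library left out. Stability and upstream genes called higher were 9 with upper-quartile scaling, 10 with totals, 2 with the replicate block, 9, 9 and 7 by FPKM, 2 with each of 3 GC offsets, 1 with GC and block, 9 with GC without siNC replicate 2, and 1 to 9 with 1 library left out. Those called lower were 3 with GC, 4 with the longest transcript, 4 with GC and length, 3 with GC, A and length and 3 with GC and block. S-phase genes called higher were 4 by DESeq2, 5 with upper-quartile scaling, 5 with totals, 6, 6 and 5 by FPKM, 1 with GC, 1 with GC and length, 1 with GC, A and length, 0 with GC and block, 5 with GC without siNC replicate 2, and 1 to 5 with 1 library left out. Those called lower were 7 with upper-quartile scaling, 7 with totals, 7, 7 and 6 by FPKM, 4 with GC, 6 with the longest transcript, 6 with GC and length, 5 with GC, A and length, 4 with GC and block, and 6 to 12 with 1 library left out.

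Of all genes, 2758 of 13067 tested were higher as reported. DESeq2 called 3044 higher of the same 13067, upper-quartile scaling 3771 and totals 4280. Higher with GC were 2130 of 13043, with the longest transcript 2215 and with GC and length 2810. They were 2414 with GC, A and length and 1562 with GC and block. GC without siNC replicate 2 gave 4500 of 13372, and leaving out 1 library gave 1647 to 4701. By FPKM 3966 and 3902 of 9804 were higher, and 3929 of 21879 without the filter. The list counts above are best read beside these. Lower were 3508 as reported, 2938 with upper-quartile scaling, 2814 with totals, and 1976, 1974 and 2407 by FPKM. With GC they were 1988, with the longest transcript 2029 and with GC and length 2354. They were 2075 with GC, A and length, 1539 with GC and block, and 2693 to 4891 with 1 library left out. The replicate block alone called 2390 higher and 3225 lower and moved, of the G1 genes, Ccnd2 alone across the threshold. Upper-quartile scaling moved the median of all genes by 0.19 on the log2 scale, totals by 0.25, the filtered FPKM fits by 0.27 and 0.33 and the unfiltered FPKM fit by -0.0046, while dropping the count filter moved it by -0.12. The share of calls that were lower was 56.0% as reported, 43.8% with upper-quartile scaling, 39.7% with totals and 33.3% to 38.0% by FPKM. Low counts, at 59 for Rb1, limit its precision, and the 5 CPM filter and the FPKM filter dropped Rb1, the second also Cdk6.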
